A study of Rattus norvegicus with 16 samples.

Results

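The miR-379 to miR-410 cluster is a long array of microRNA (miRNA) hairpins in the imprinted Dlk1-Dio3 region. Its members were taken by name, as every listed mature rat miRNA that carries the number of a cluster hairpin, whatever its letter or arm suffix. This gave 66 of the 722 miRNAs in the tables, from 35 hairpins, of which 31 were listed with both arms. Small RNA was sequenced from the dorsal raphe, a midbrain nucleus of serotonin neurons, and from the amygdala, a forebrain region of fear and emotional learning. The rats were 60 days old and of 2 strains, called lines below, that the labels call high responder and low responder, terms used for rats that differ in their locomotor response to a new environment. The 4 groups were low responder dorsal raphe, high responder dorsal raphe, low responder amygdala and high responder amygdala, with 4 libraries each. No group is described as treated, and the labels give neither the sex of the rats nor whether rats were pooled. Nor do they state whether each sample is a different rat, and p-values therefore measure only the spread between these samples.

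The Dlk1-Dio3 region is imprinted, and its miRNAs are made from the maternal chromosome out of long noncoding transcripts that hold many hairpins in tandem. Each hairpin is cut to a duplex whose strands, the 5p and the 3p arm, can each be loaded into Argonaute, where bases 2 to 8, the seed, pair with target messenger RNAs. In neurons the cluster is known to be induced by activity through the factor Mef2, and its best studied member, miR-134-5p, represses Limk1 and Pumilio2 and thereby acts on dendrites and spines.

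Mature sequences were found in RefSeq (rat assembly GRCr8) for 65 of the 66 members, all but miR-679. Of the placed hairpins 32 lie on the plus strand in an order that runs from miR-379 to miR-410, and miR-299b and miR-409b lie on the minus strand. The members below are the 8 with the largest region differences that passed the test, the other arms of miR-382 and miR-376a, and the 3 of the highest level, shown 5′ to 3′ with the seed in capitals, so that the arms of a hairpin and the differences between seeds can be compared.
miR-758-3p: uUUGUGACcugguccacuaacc
miR-134-5p: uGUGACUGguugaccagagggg
miR-666-5p: aGCGGGCAcggcugugagag
miR-380-5p: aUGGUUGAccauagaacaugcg
miR-380-3p: uAUGUAGUaugguccacaucu
miR-376a-5p: gGUAGAUUcuccuucuaugag
miR-376a-3p: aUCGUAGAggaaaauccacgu
miR-379-3p: cUAUGUAAcaugguccacuaac
miR-382-3p: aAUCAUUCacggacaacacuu
miR-382-5p: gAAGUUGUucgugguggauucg
miR-300-3p: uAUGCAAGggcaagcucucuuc
miR-379-5p: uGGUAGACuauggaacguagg
miR-411-5p: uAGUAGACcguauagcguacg
The 65 sequences held 59 distinct seeds, so most members have a seed of their own, and 11 members shared 5 seeds. The members of each shared seed are shown because miRNAs with a common seed can pair with the same sites.
miR-299a-3p: uAUGUGGGacgguaaaccgcu
miR-299b-3p: uAUGUGGGacgguaaac
miR-299a-5p: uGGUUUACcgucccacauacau
miR-299b-5p: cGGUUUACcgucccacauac
miR-376b-5p: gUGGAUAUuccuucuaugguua
miR-376c-5p: gUGGAUAUuccuucuauguuu
miR-381-3p: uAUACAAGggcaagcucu
miR-539-3p: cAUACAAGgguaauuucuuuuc
miR-410-5p: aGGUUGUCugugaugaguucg
miR-494-5p: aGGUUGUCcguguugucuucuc
miR-496-5p: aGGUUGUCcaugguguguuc
Outside the cluster, miR-344b-1-3p has the seed of miR-410-3p, miR-672-5p that of miR-377-5p, miR-741-5p that of miR-376c-3p and miR-362-3p that of miR-329-3p, of which the last pair is shown as an example.
miR-329-3p: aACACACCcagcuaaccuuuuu
miR-362-3p: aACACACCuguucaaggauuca
Some members are so alike that reads may have been split between them. miR-376b-5p and miR-376c-5p differ by an edit distance of 2, and miR-379-3p and miR-411-3p, miR-376a-3p and miR-376b-3p, and miR-299a-5p and miR-299b-5p by 3. How reads with several matches were counted is not given here, and values of these members are uncertain to that extent.

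The libraries held 1741167 to 8134915 counts. The floor of detection was taken as 3 counts, which stood for 0.369 to 1.72 per 1000000 unscaled counts, a limit that covers counting error only. Levels below are in counts per 1000000 with TMM scaling (CPM), which this floor leaves out. Marker miRNAs differed between the regions as well. Neuron markers held 16.2% to 20.1% of the counts in dorsal raphe and 24.1% to 29.3% in amygdala (5 of 17 called higher in amygdala), oligodendrocyte markers 1.20% to 2.42% and 0.50% to 1.27% (3 of 5 lower), muscle markers 0.146% to 0.303% and 0.0240% to 0.0467% (5 of 7 lower, 1 higher), choroid plexus markers 0.312% to 0.428% and 0.201% to 5.33% (6 of 9 higher), hindbrain markers 0.0403% to 0.234% and 0.00336% to 0.0208% (2 of 6 lower), and vascular markers 4.95% to 7.11% and 3.50% to 4.52% (0 of 7 called). Of the microglia and leukocyte markers 1 of 8 was lower in amygdala, and of the erythrocyte markers 0 of 4 were called. Between the lines 0 markers of any list were called in either region. The summed shares of 3 lists did not overlap between the lines in 1 region. In dorsal raphe these were oligodendrocyte markers (1.51% to 2.42% in low and 1.20% to 1.3% in high responders) and neuron markers (16.2% to 17.1% and 17.3% to 20.1%), and in amygdala microglia and leukocyte markers (0.121% to 0.152% and 0.0487% to 0.0962%). No marker was at 0 in every library. Their part in the differences below was not tested, and in bulk tissue fewer cells of a type cannot be told apart from less RNA per cell.

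The libraries of low responder dorsal raphe replicate 4 (2096188 counts) and of high responder amygdala replicate 1 (1741167 counts) deviated most from their groups and are called the libraries that stood apart. The log2 levels of each were compared with the mean of all 4 libraries of its group, itself included. Over the 63 members that passed the filter on low counts, the root mean square difference was 1.19 and 1.00. Over all 639 miRNAs it was 1.03 and 0.968. In the other 14 libraries these values were 0.170 to 0.749 over members and 0.285 to 0.880 over all miRNAs, the highest of them in high responder amygdala replicate 4, so that high responder amygdala replicate 1 stood less clearly apart from its group. Both libraries deviated alike: 33 members were lower and 19 higher in both, 11 moved in opposite directions, and the correlation of the deviations was 0.77 over the 63 members and 0.57 over the 639 miRNAs (a description over miRNAs, which are not independent replicates). miR-154-3p was 26.2, 24.9, 31.3 and 1.60 CPM in low responder dorsal raphe replicates 1 to 4 and 0.532, 6.28, 15.7 and 23.3 CPM in high responder amygdala, so that the library that stood apart was the lowest of each group. miR-485-5p, a regulator of synaptic proteins, went the other way, with 623, 477, 490.4 and 4943 CPM in low responder dorsal raphe and 1227, 518, 508 and 442 CPM in high responder amygdala. Over the 62 members with a sequence that passed the filter, the deviation of a member correlated with its percent of G at 0.49 and 0.60 in these libraries and at 0.54 in low responder amygdala replicate 1, and at -0.56 to 0.21 in the others. In these correlations and in the counts of members lower or higher, a deviation is taken from the other 3 libraries of the group. A library that stands apart therefore moves the others of its group the opposite way. The main results are therefore given with and without the 2 libraries. Because the 2 were chosen by their deviations in these same data, leaving them out narrows the spread within their groups. Adjusted p-values and counts of calls without them are therefore a description, and such p-values can be too small.

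**Figure D1:**
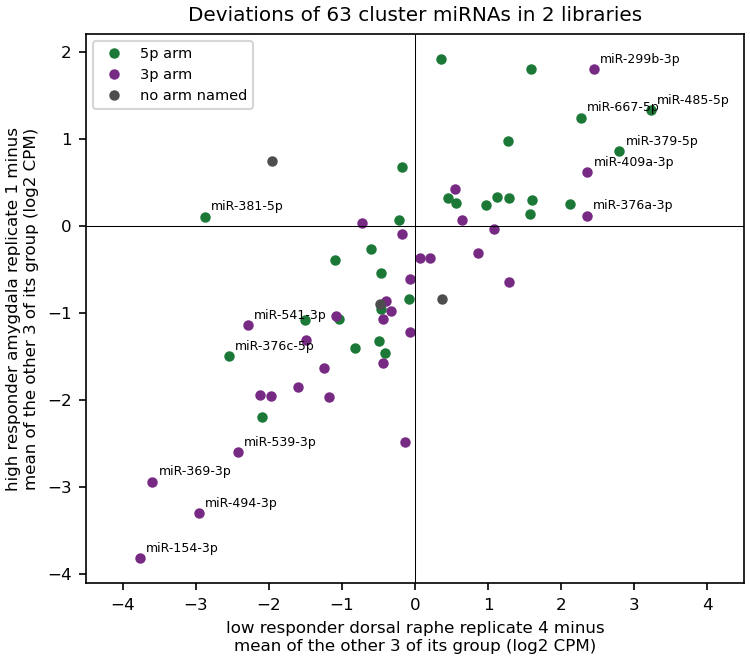
Deviation of each of 63 cluster miRNAs in low responder dorsal raphe replicate 4 (x axis) and in high responder amygdala replicate 1 (y axis), each as log2 CPM minus the mean of the other 3 libraries of its group; points are miRNAs, coloured by arm, and those beyond 2.2 on the x axis are named. Most points lie in the lower left (33 miRNAs) or the upper right (19), so the same members were low or high in both libraries.

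The cluster held a larger share of the counts in dorsal raphe than in amygdala. The 66 members made up 4.83%, 4.53%, 4.81% and 5.19% of the counts in low responder dorsal raphe replicates 1 to 4, and 3.95%, 4.34%, 4.12% and 5.16% in high responder dorsal raphe. They made up 3.26%, 3.41%, 3.18% and 3.14% in low responder amygdala and 3.06%, 2.76%, 3.12% and 3.03% in high responder amygdala. The 8 dorsal raphe libraries, at 3.95% to 5.19%, all lay above the 8 amygdala libraries, at 2.76% to 3.41%. Means were 4.84% ± 0.27 and 4.39% ± 0.54 (SD, n = 4) for low and high responders in dorsal raphe and 3.25% ± 0.12 and 2.99% ± 0.16 in amygdala, and the lines overlapped in dorsal raphe but not in amygdala. These shares are of unscaled counts. Low responder dorsal raphe replicate 4 was the highest dorsal raphe library. The facing edges of the regions were set by libraries that did not stand apart, high responder dorsal raphe replicate 1 (3.95%) and low responder amygdala replicate 2 (3.41%).

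**Figure D2:**
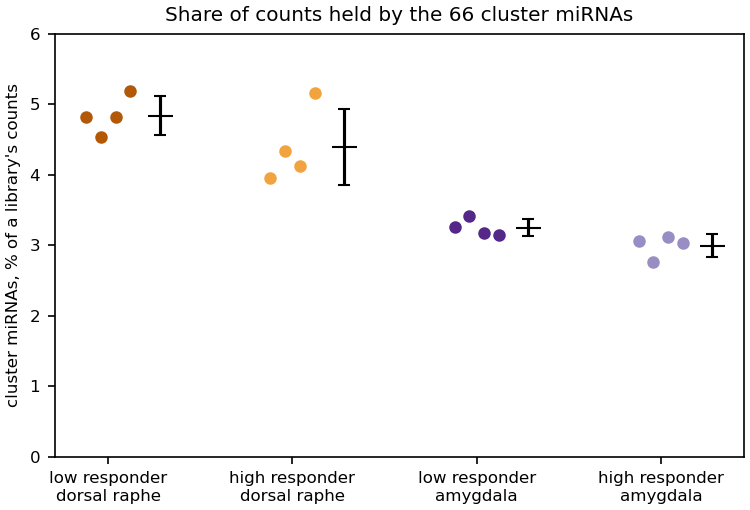
Percent of each library's counts held by the 66 cluster miRNAs (y axis) in the 4 groups; points are libraries, in the order of replicates 1 to 4, and bars give mean ± SD (n = 4). All 8 dorsal raphe libraries lie at 3.95% or more and all 8 amygdala libraries at 3.41% or less.

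A few arms made up most of the cluster. miR-411-5p had the highest mean level, 8809 CPM or 22.2% of the members' CPM, followed by miR-379-5p with 6747 and miR-300-3p with 4159 CPM. The 10 most abundant members, which also include miR-541-5p, miR-543-3p, miR-382-5p, miR-369-5p, miR-323-3p, miR-495 and miR-410-3p, held 72.1% of the members' CPM, and each averaged 1000 CPM or more. A further 22 members averaged 100 to 1000 CPM, 16 averaged 10 to 100, and 18 less than 10. miR-494-5p, miR-299b-5p and miR-409b did not pass the filter, with 107, 51 and 22 counts over all 16 libraries. The minus-strand miR-299b-3p, which passed it, averaged 2.45 CPM, against 70.7 CPM for miR-299a-3p, whose seed it shares. Levels compare reads counted per miRNA, and ligation and amplification can differ between sequences, so the order of levels between members is a description.

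Some members were lower in amygdala and others were not. Averaged over the lines, edgeR's quasi-likelihood test called 17 of the 63 members lower in amygdala than in dorsal raphe and 1 higher, where the background over all 639 miRNAs was 14.9% lower and 9.39% higher. The median log2 fold change (amygdala over dorsal raphe) was -0.41 over the members and -0.08 over all miRNAs, 48 members were negative and 15 positive, and 27 members, against 39% of all miRNAs, had an unadjusted p under 0.05. DESeq2 called 19 lower and 4 higher (background 32.3% in either direction), and edgeR with relative log expression (RLE) factors 16 lower and 4 higher (background 13.3% and 11.7%). Without both libraries that stood apart, 17 of 62 members were lower and 10 higher, where the background in the same fit was 13% lower and 19.8% higher. Of these 15 lower and 1 higher were shared with the calls on all libraries. In that fit the median of all miRNAs moved from -0.08 to 0.22 and that of the members from -0.41 to -0.15, so that relative to all miRNAs the members lay lower by a like amount in both fits.

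miR-758-3p had the largest fall. It ran from 258 to 639.7 CPM in the dorsal raphe libraries (median 450.6) and 77.2 to 204.3 CPM in the amygdala libraries (median 124.3), so that the lowest dorsal raphe library lay above the highest amygdala library (log2 fold change -1.81, SE 0.25, adjusted p = 3.77e-05, edgeR). It was lower in amygdala in each line, with log2 fold changes of -1.97 in low responders (adjusted p = 0.00109) and -1.65 in high responders (adjusted p = 0.0038), and its log2 fold change without both libraries was -1.63 (adjusted p = 2.60e-06). The other arm, miR-758-5p, had at most 4.00 CPM in any library.

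miR-134-5p, the repressor of Limk1, ran from 724 to 2585 CPM in the dorsal raphe libraries (median 1064) and 322 to 585 CPM in the amygdala libraries (median 447), without overlap of the regions (log2 fold change -1.41, SE 0.22, adjusted p = 1.37e-04, edgeR). Low responder dorsal raphe replicate 4 was the highest library, and without both libraries that stood apart the log2 fold change was -1.05 (adjusted p = 1.39e-05). Its passenger arm miR-134-3p, at a mean of 18.9 CPM, fell too (log2 fold change -0.76, adjusted p = 0.0119). miR-382 lies next to miR-134 in the cluster. Its 3p arm ran from 675 to 2160.2 CPM in the dorsal raphe libraries (median 779.7) and 259 to 599 CPM in the amygdala libraries (median 458), again without overlap (log2 fold change -1.08, SE 0.22, adjusted p = 0.00113). Its 5p arm ran from 968 to 4607 CPM in the dorsal raphe libraries (median 1329.7) and 721 to 969.8 CPM in the amygdala libraries (median 898), with overlap (log2 fold change -0.92, SE 0.23, adjusted p = 0.00762). Without both libraries these values were -0.61 (adjusted p = 4.39e-04) for miR-382-3p and -0.48 (adjusted p = 0.00279) for miR-382-5p, each more than 1.5 times smaller. Without low responder dorsal raphe replicate 4 alone miR-382-5p gave -0.59 (adjusted p = 0.00341).

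Both arms of miR-380 fell. miR-380-5p ran from 392 to 1989.6 CPM in the dorsal raphe libraries (median 468) and 179.8 to 328.7 CPM in the amygdala libraries (median 249.6), without overlap (log2 fold change -1.36, SE 0.29, adjusted p = 0.00215, edgeR). In low responder dorsal raphe its libraries held 442, 438, 494.1 and 1989.6 CPM, and without both libraries that stood apart its log2 fold change was -0.76 (adjusted p = 9.21e-05), or -0.89 (adjusted p = 1.74e-04) without low responder dorsal raphe replicate 4 alone. miR-380-3p ran from 389 to 1404 CPM in the dorsal raphe libraries (median 978) and 128.3 to 627 CPM in the amygdala libraries (median 376.03), with overlap (log2 fold change -1.27, SE 0.31, adjusted p = 0.00537), and gave -1.07 (adjusted p = 1.64e-04) without both. The 5p arm was highest and the 3p arm lowest in the same dorsal raphe library, low responder replicate 4.

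miR-666-5p ran from 31.1 to 122 CPM in the dorsal raphe libraries (median 49.1) and 11.8 to 36.2 CPM in the amygdala libraries (median 18.9), where only high responder amygdala replicate 1, at 36.2 CPM, reached into the dorsal raphe range (log2 fold change -1.42, SE 0.27, adjusted p = 7.98e-04, edgeR). miR-666-3p, at a mean of 7.59 CPM, fell as well (log2 fold change -0.79, adjusted p = 0.00416), and its regions did not overlap. Together with miR-134-5p, miR-380-5p, miR-382-3p and miR-758-3p it was among 5 of the 63 members (7.94%) without overlap between 8 and 8 libraries, where the background was 6.57% of all miRNAs in either direction and 4.69% lower.

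The miR-376 family, whose precursors are known to be edited from adenosine to inosine in brain, fell in part. miR-376a-5p ran from 78.5 to 370 CPM in the dorsal raphe libraries (median 304) and 25.6 to 186 CPM in the amygdala libraries (median 139.9) (log2 fold change -1.24, SE 0.35, adjusted p = 0.0152, edgeR). Of the dorsal raphe libraries only low responder replicate 4 reached into the amygdala range, and the call was lost without high responder amygdala replicate 2 (adjusted p = 0.0549). miR-376b-5p had a log2 fold change of -0.86 (adjusted p = 0.0218) and miR-376a-3p of -0.95 (adjusted p = 0.0479). miR-376b-5p kept its call when low responder dorsal raphe replicate 4, high responder dorsal raphe replicate 1, or high responder amygdala replicate 3 or 4 was left out, and lost it without any 1 of the others. miR-376a-3p kept its call without low responder dorsal raphe replicate 1 or 2 or high responder dorsal raphe replicate 1, and lost it without any 1 of the others. Low responder dorsal raphe replicate 4 stood at 389 CPM of miR-376a-3p against 44.7 to 118 in the other dorsal raphe libraries. Without that library its log2 fold change was -0.43 (adjusted p = 0.115). miR-376b-3p (-0.71, adjusted p = 0.132), miR-376c-3p (-0.03, adjusted p = 0.925) and miR-376c-5p (-0.37, adjusted p = 0.503) did not pass the test.

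The most abundant members had smaller log2 fold changes. miR-300-3p ran from 3261 to 6925 CPM in the dorsal raphe libraries (median 5291) and 2424 to 4475 CPM in the amygdala libraries (median 2864), with overlap (log2 fold change -0.75, SE 0.19, adjusted p = 0.00655, edgeR), with -0.48 (adjusted p = 0.0198) without both libraries that stood apart, and miR-300-5p gave a log2 fold change of -0.93 (adjusted p = 0.00604). miR-411-5p, the most abundant member, ran from 7734 to 14900 CPM in the dorsal raphe libraries (median 10009) and 4483 to 8971 CPM in the amygdala libraries (median 7314), with overlap (log2 fold change -0.65, SE 0.18, adjusted p = 0.0152). Its call was lost when low responder dorsal raphe replicate 3, low responder amygdala replicate 2 or 3, high responder dorsal raphe replicate 2 or 4, or high responder amygdala replicate 1 or 2 was left out, with log2 fold changes of -0.56 to -0.47. miR-379-3p fell with a log2 fold change of -1.11 (adjusted p = 0.0233). It kept its call when low responder dorsal raphe replicate 4, low responder amygdala replicate 4, high responder dorsal raphe replicate 1, or high responder amygdala replicate 3 or 4 was left out, and lost it without any 1 of the other libraries. miR-379-5p did not pass the test (-0.82, adjusted p = 0.107). It was 35639.9 CPM in low responder dorsal raphe replicate 4 and 4098 to 6097 CPM in the other dorsal raphe libraries, and its log2 fold change without that library was -0.14 (adjusted p = 0.545). The remaining lower call was miR-323-5p, with -0.63 (adjusted p = 0.0227) and -0.41 (adjusted p = 0.0808) without both. miR-323-5p, miR-134-3p and miR-666-3p fall outside the rule for naming members and were named after their values were seen, as were miR-154-3p, the uncalled miR-376 arms, and the neighbouring and one-sided hairpins described below.

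Other abundant members did not pass the test. miR-543-3p had a log2 fold change of 0.43 (adjusted p = 0.0743), miR-323-3p of 0.23 (adjusted p = 0.325), miR-495 of -0.14 (adjusted p = 0.646), miR-410-3p of -0.21 (adjusted p = 0.646), miR-369-5p of -0.26 (adjusted p = 0.389) and miR-541-5p of -0.41 (adjusted p = 0.192), with overlap between the regions for each. Without both libraries that stood apart, miR-543-3p and miR-323-3p were called higher in amygdala, at 0.64 (adjusted p = 0.00159) and 0.59 (adjusted p = 1.87e-04), as was miR-409a-3p at 0.77 (adjusted p = 4.90e-04), and DESeq2 on all libraries also called miR-543-3p higher (adjusted p = 0.00612). The member called higher on all libraries was miR-410-5p, a minor arm named after its values were seen. It ran from 3.62 to 15.2 CPM in the dorsal raphe libraries (median 6.85) and 5.94 to 24.8 CPM in the amygdala libraries (median 11.4), with overlap (log2 fold change 0.78, SE 0.28, adjusted p = 0.0485), was highest in high responder amygdala replicates 1 and 2, and gave 1.09 (adjusted p = 0.00815) without both libraries. With no filter on low counts 0 of 66 members were called higher, against 8.45% of all 722 miRNAs.

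**Figure D3:**
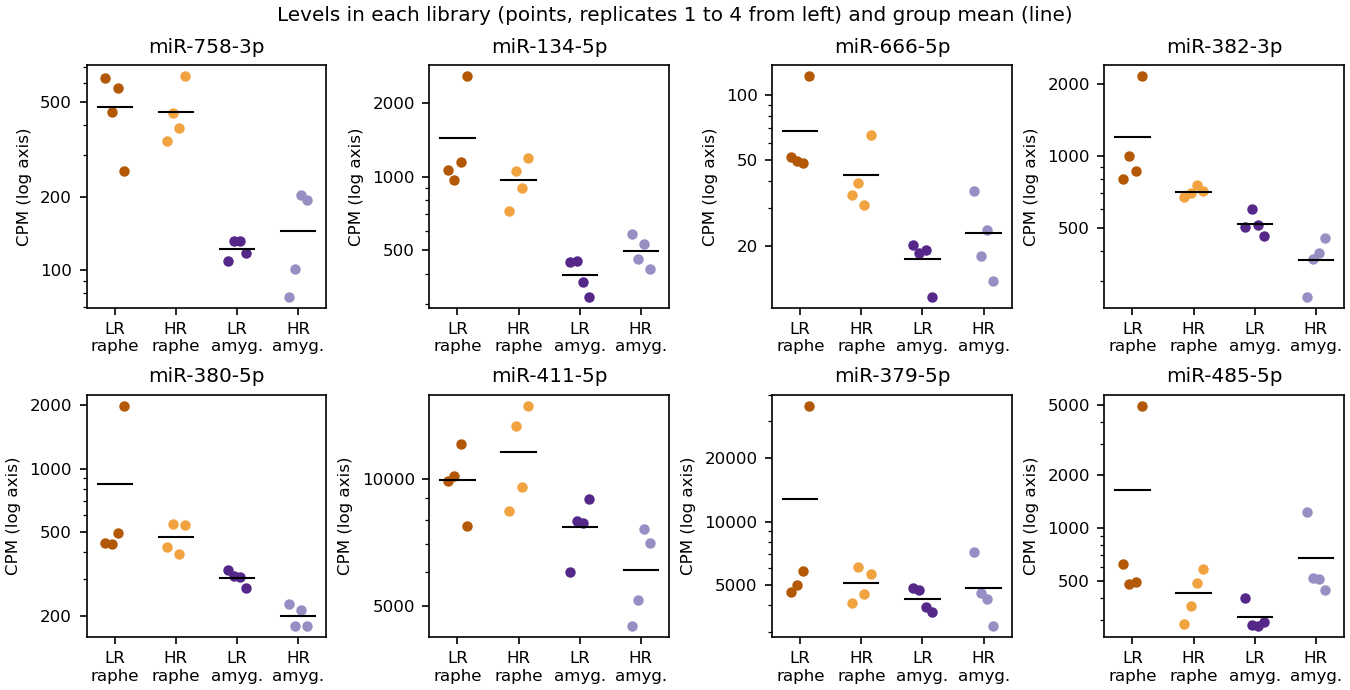
Levels of 8 cluster miRNAs in the 16 libraries (y axes, CPM on a log axis that differs between panels) by group (LR, low responder; HR, high responder); points are libraries, replicates 1 to 4 from left, and lines are group means. The amygdala libraries lie below the dorsal raphe libraries for miR-758-3p, miR-134-5p, miR-382-3p and miR-380-5p, and low responder dorsal raphe replicate 4 lies far above its group for miR-379-5p and miR-485-5p.

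Neighbours in the cluster differed from each other. miR-380, miR-323, miR-758 and miR-329 lie in that order, and their more abundant arms had region log2 fold changes of -1.27 (miR-380-3p), 0.23 (miR-323-3p), -1.81 (miR-758-3p) and -0.49 (miR-329-5p, adjusted p = 0.127). Of the 29 hairpins with both arms tested, both arms were called in 6 (miR-134, miR-300, miR-376a, miR-380, miR-382 and miR-666), 1 arm in 6 and neither in 17. The arms had the same sign in 21. Taken singly, 24.3% of all miRNAs were called in this comparison. Calls in both arms and shared signs were not counted over all hairpins, so these counts only describe the members. The lower calls lay from miR-379 to miR-134, the hairpin at place 22 of 32. In the stretch from miR-668 to miR-410 edgeR called no member lower in the comparison averaged over the lines on all libraries, but in low responders alone it called miR-485-5p lower (-2.39, adjusted p = 0.018). In the averaged comparison DESeq2 called miR-154-5p lower in that stretch (adjusted p = 0.0429), and edgeR called miR-369-3p lower without both libraries that stood apart, at -0.78 (adjusted p = 0.0397). This stretch was noticed after the values were seen, and no difference between the stretches was tested.

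**Figure D4:**
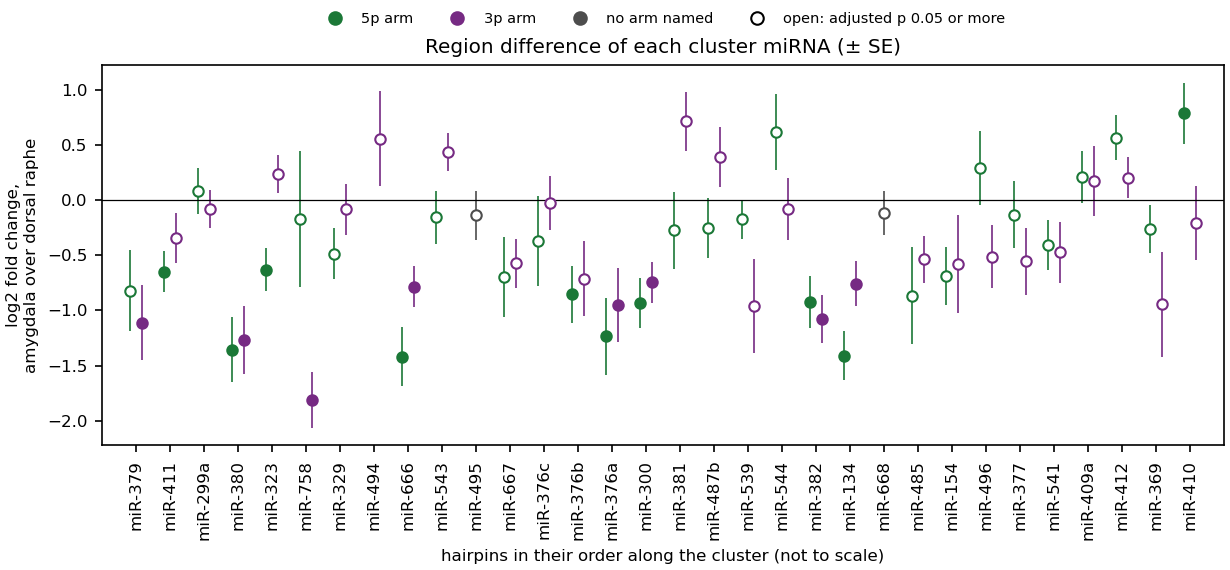
Region difference averaged over both lines, as log2 fold change of amygdala over dorsal raphe (y axis, ± SE), for each cluster miRNA that passed the filter, with hairpins in their RefSeq order along the cluster (x axis, not to scale); filled points passed an adjusted p of 0.05. Filled points reach from miR-758-3p at -1.81 to miR-410-5p at 0.78; miR-679, which has no place in the table, and the minus-strand miR-299b-3p are not drawn.

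Within low responders, edgeR called 13 of 63 members lower in amygdala and 0 higher (background 10.5% and 3.6%), and within high responders 6 lower and 2 higher (background 6.57% each). DESeq2 called 12 lower and 0 higher in low responders (background 17.7% in either direction) and 12 lower and 4 higher in high responders (22.1%). By edgeR miR-134-5p, miR-382-3p and miR-758-3p were lower in both lines. The others called in low responders were miR-300-3p, miR-323-5p, miR-376a-3p, both arms of miR-380 and of miR-666, miR-382-5p, miR-485-5p and miR-667-5p, and in high responders miR-300-5p, miR-379-3p and miR-411-5p. Low responder dorsal raphe replicate 4 weighs on several of the low responder calls. Its log2 level minus the mean of the rest of its group was 3.23 for miR-485-5p and 2.27 for miR-667-5p. It was 2.35 for miR-376a-3p and 2.12 for miR-380-5p, but -1.60 for miR-380-3p. No difference between the lines in the calls of either line passed the interaction test by edgeR given below. DESeq2 called the interaction of 1 member, miR-543-3p (adjusted p = 0.0486). The members called higher in high responder amygdala were miR-410-5p (1.60, adjusted p = 0.0108) and miR-543-3p (0.98, adjusted p = 0.0131). miR-543-3p was 862, 879, 903 and 1079 CPM in high responder dorsal raphe and 2259, 1683, 1815 and 1563 CPM in high responder amygdala, without overlap, and 1670.2, 1276, 1417 and 2109.7 and 1445, 1084, 1671 and 1811 CPM in the low responder regions, with overlap (-0.11, adjusted p = 0.812). These counts of calls moved with single libraries. In low responders 13 became 3 to 8 without low responder dorsal raphe replicate 4, any low responder amygdala library, high responder dorsal raphe replicate 2, 3 or 4, or high responder amygdala replicate 2, where 7.09% to 12.7% of all miRNAs were called, against 14.1% with all libraries. In high responders 8 became 3 to 5 without any low responder amygdala library, high responder dorsal raphe replicate 2, 3 or 4, or high responder amygdala replicate 1 or 2, where 9.2% to 12.9% of all miRNAs were called, and 18 without low responder dorsal raphe replicate 4 (18.7% of all miRNAs), against 13.1% with all libraries.

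No member passed the threshold between the lines. These comparisons share libraries with the region comparisons and are not independent of them. In dorsal raphe edgeR called 0 of 63 members (background 0% of 639), as did DESeq2 and limma-voom. Of the members 13, all lower in high responders, had an unadjusted p under 0.05, against a background of 10.3% lower and 11% in either direction. Counted in either direction, the number was 1 without low responder dorsal raphe replicate 4 (3.47% of all miRNAs) and 5 without high responder dorsal raphe replicate 2 (4.07%). It was 8 without high responder dorsal raphe replicate 1, 3 or 4 (5.88% to 6.49%). The median log2 fold change (high over low responders) was -0.21 over members and -0.06 over all miRNAs. miR-485-5p was 623, 477, 490.4 and 4943 CPM in low responders and 282, 358, 484.7 and 579 CPM in high responders, with overlap (log2 fold change -1.94, SE 0.64, adjusted p = 0.358, edgeR), and -0.20 (adjusted p = 0.996) without low responder replicate 4. miR-409a-3p was 558, 408.6, 663 and 2733 CPM in low responders and 379.2, 393, 416 and 450.1 CPM in high responders, with overlap (log2 fold change -1.41, SE 0.46, adjusted p = 0.358), and -0.28 (adjusted p = 0.996) without that library. miR-382-5p (1638, 1518, 1390.4 and 4607 CPM against 968, 1258, 1241 and 1269 CPM) and miR-323-3p (1087, 1105, 1133 and 2020 CPM against 772, 818, 862 and 903 CPM) did not overlap between the lines, and gave log2 fold changes of -0.95 and -0.67 with all libraries and -0.23 and -0.27 without that library. miR-543-3p, which also did not overlap, gave -0.80 (SE 0.25) and -0.51 (SE 0.23), and miR-541-5p -0.87 and -0.16. Groups without overlap were seen in 4 members, which also include miR-382-3p, that is 6.35% against 4.23% of all miRNAs.

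In amygdala edgeR called 0 of 63 members between the lines (background 0%), as did DESeq2, which called 19 of all miRNAs (4.55%), and limma-voom. An unadjusted p under 0.05 was found in 6 members (9.52%; background 10.2%), in 12 without low responder dorsal raphe replicate 4 (14.8% of all miRNAs), in 3 without low responder amygdala replicate 2 (8.83%), in 0 without high responder amygdala replicate 2 (7.11%) and in 13 without both libraries that stood apart (15.7%). miR-539-3p was 121, 252, 305 and 298 CPM in low responders and 13.8, 31.8, 121 and 165 CPM in high responders (log2 fold change -1.55, SE 0.61, adjusted p = 0.41, edgeR). miR-379-3p was 121, 216, 192 and 251 CPM and 24.5, 53.2, 119.5 and 135 CPM (log2 fold change -1.22, SE 0.49, adjusted p = 0.41). For each the lowest values were in high responder replicates 1 and 2, and the groups overlapped. miR-495, which has no arm in its name, was 709, 731, 931 and 842 CPM in low responders and 796, 1180.1, 1635 and 1485 CPM in high responders (log2 fold change 0.67, SE 0.31, adjusted p = 0.476), with overlap. The log2 fold changes of miR-494-3p, miR-496-3p and miR-409a-5p were -1.16, -0.77 and -0.64, with adjusted p of 0.537, 0.533 and 0.528. miR-494-3p gave -1.88 without high responder amygdala replicate 4, and miR-496-3p and miR-409a-5p gave -0.50 and -0.40 without high responder amygdala replicate 1. Same-numbered amygdala libraries of the lines deviated together, and with the replicate number as a block within amygdala alone 15 members had an unadjusted p under 0.05, against 18.5% of all miRNAs in that fit, and 0 were called. Groups without overlap were seen in 7 members (11.1%; background 8.76%).

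The interaction of line and region, which asks whether the line difference is larger in amygdala than in dorsal raphe, passed in 0 of 63 members by edgeR (background 0%), with 11 at an unadjusted p under 0.05 (17.5%; background 12.7%), or 7 without low responder dorsal raphe replicate 4 (8.75% of all miRNAs). DESeq2 called miR-543-3p (adjusted p = 0.0486) among 22 miRNAs (5.26%), and limma-voom 0 members. By edgeR miR-543-3p had an interaction of 1.08 on the log2 scale (SE 0.35, adjusted p = 0.204) and 0.76 (adjusted p = 0.462) without low responder dorsal raphe replicate 4. miR-485-5p, miR-667-5p and miR-409a-3p had interactions of 3.05, 2.23 and 1.82 (adjusted p = 0.195, 0.204 and 0.24), and of 1.29, 1.14 and 0.65 without that library.

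The arms were compared within each library as the 5p share, the 5p counts in percent of both arms' counts, which needs no scaling between libraries. The 5p arm was the larger in all 16 libraries in 9 of 29 hairpins and the 3p arm in 10, and the larger arm changed between libraries in 10. By the mean log2 ratio of the arms, the most one-sided hairpins were miR-541 toward 5p, with a mean 5p share of 99.1% (98.5% to 99.9%), and miR-758 toward 3p, with 0.824% (at most 4.61% in any library). miR-134, miR-379 and miR-411 were mostly 5p, at 97.3%, 95.9% and 93.4%, and miR-300, miR-323, miR-410 and miR-543 mostly 3p, at 0.828%, 2.62%, 1.75% and 0.489%.

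In several hairpins the larger arm was the other one in the libraries that stood apart. The 5p share of miR-376a was 82.8%, 85.3%, 75.8% and 16.8% in low responder dorsal raphe and 29.6%, 53.7%, 71.6% and 76.5% in high responder amygdala, so that the 3p arm was the larger in these 2 libraries alone. For miR-380 it was 27.4%, 30.2%, 26.0% and 83.6% and 64.0%, 40.3%, 26.7% and 22.3%. For miR-539 it was 27.5%, 23.3%, 24.8% and 71.4% and 89.9%, 75.1%, 45.6% and 37.2%, and for miR-667 19.0%, 20.6%, 22.9% and 61.6% and 63.2%, 40.4%, 21.8% and 20.5%. In miR-380 and miR-667 these 2 libraries had the highest 5p shares of all 16, and in miR-376a and miR-409a (13.2% and 14.5%) the lowest. In miR-539 high responder amygdala replicate 2 lay between them.

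The region test of the log2 ratio of the arms, by limma over all 222 hairpins with both arms, called 1 of 29 cluster hairpins (background 5.41%). The 5p share of miR-323 was 2.51% to 4.80% in dorsal raphe (median 3.27%) and 1.45% to 2.72% in amygdala (median 1.74%), and only high responder amygdala replicate 1 reached into the dorsal raphe range (difference of the log2 ratio -0.87, SE 0.19, adjusted p = 0.013). Without low responder dorsal raphe replicate 4, 3 of 30 hairpins were called, adding miR-376a and miR-381, where 16.2% of all hairpins were called. Without both libraries that stood apart 5 of 28 were called, adding also miR-369 and miR-379, where 21.1% of all hairpins were called. For miR-376a the difference was -0.89 (adjusted p = 0.026) and for miR-379 0.88 (adjusted p = 0.0439) without both.

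**Figure D5:**
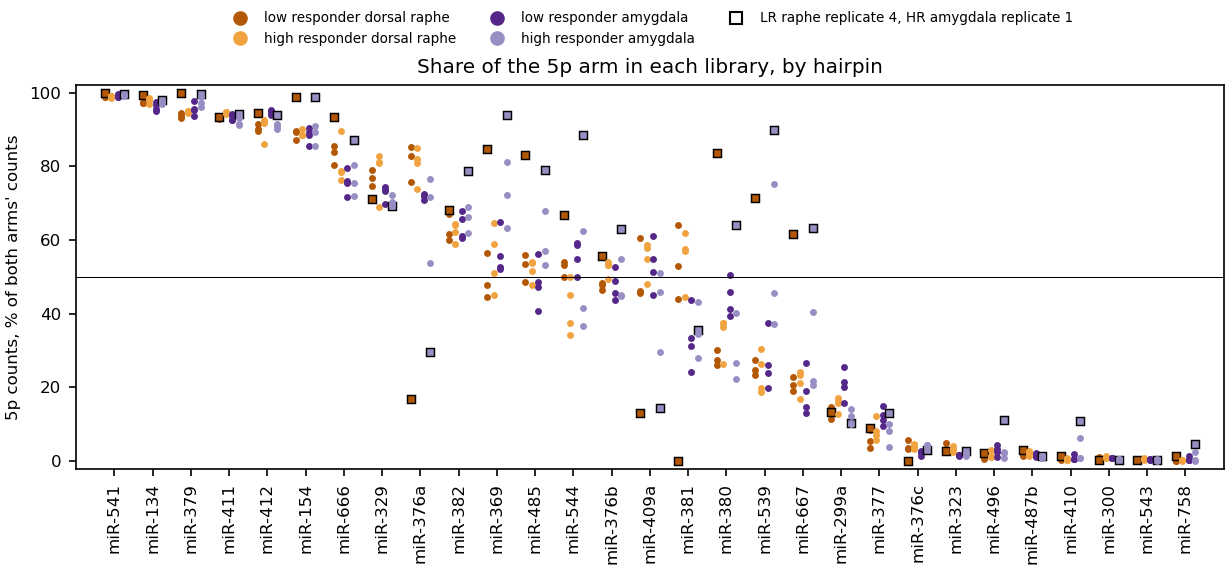
Percent of 5p counts among both arms' counts (y axis) for the 29 hairpins with both arms tested (x axis, ordered by the log2 ratio of the arms); points are libraries coloured by group, and squares with a black edge are the 2 libraries that stood apart. In miR-376a, miR-409a, miR-380, miR-539 and miR-667 both squares lie on the same side of most other libraries.

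Between the lines limma called 0 of 29 hairpins in dorsal raphe (background 0%), where 0 had an unadjusted p under 0.05 (background 0.901%), and 0 in amygdala (background 1.8%), where 6 had (background 15.3%). In dorsal raphe the 4 hairpins of lowest p, miR-541, miR-381, miR-409a and miR-544, differed by -1.08, 1.01, 0.93 and -0.80 (adjusted p = 0.978 for each). Without low responder dorsal raphe replicate 4 they differed by -0.12, 0.09, 0.23 and -0.61. In amygdala the 5p share of miR-299a was 15.7%, 25.5%, 21.6% and 20.3% in low responders and 10.3%, 10.2%, 12.2% and 14.0% in high responders, without overlap (difference of the log2 ratio -0.96, SE 0.25, adjusted p = 0.0618). It passed the threshold without low responder dorsal raphe replicate 4, low responder amygdala replicate 1 or high responder amygdala replicate 4 (adjusted p = 0.0474, 0.0326 and 0.0454). miR-539, miR-369 and miR-412 differed by 2.41, 1.68 and -0.68 (adjusted p = 0.144, 0.241 and 0.277), and miR-539 and miR-369 by 1.67 and 1.04 without high responder amygdala replicate 1. miR-539 passed without high responder amygdala replicate 4 (adjusted p = 0.0467).

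Other miRNAs of the Dlk1-Dio3 region, 25 arms outside the cluster such as those of miR-127, miR-136, miR-433 and miR-434, were also lower in part. edgeR called 6 of 25 lower in amygdala (miR-136-5p, miR-337-3p, miR-433-3p, miR-433-5p, miR-665 and miR-770-5p) and 3 higher (miR-493-3p, miR-493-5p and miR-673-5p), where the background was 14.9% lower and 9.39% higher. Their median log2 fold change was -0.33, against -0.08 over all miRNAs. They held 6.76% to 11.8% of the counts in dorsal raphe and 4.73% to 7.91% in amygdala, with overlap. Between the lines edgeR called 0 of 25 in each region.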

How the data were processed

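Small RNA libraries from 16 rat brain samples were analysed. Per the labels' protocols, total RNA was extracted with a Qiagen miRNeasy kit and Illumina small RNA libraries were size-selected. Per the submitters' processing notes, cutadapt 1.3.1, Bowtie2 and bedtools 2.14.2 were used; which build and annotation were used, and how reads with several matches were counted, is not given in the sources used here. The authors deposited raw counts per mature miRNA for each sample, 1741167 to 8134915 per library. The 83 miRNAs that did not pass the filter on low counts, at most 0.0169% of a library's counts, were left out of the tests. No 2 libraries agreed within sampling noise (lowest chi-square per degree of freedom 55.4).

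Differences in counts were tested in R 4.3.3 with edgeR 4.0.16 (quasi-likelihood test, robust, TMM scaling by trimmed mean of M values, filterByExpr with a minimum count of 10 and a minimum total of 15), with 1 mean per group in all 16 libraries. Adjusted p-values are Benjamini-Hochberg values over 639 miRNAs, with a threshold of 0.05. The log2 ratio of the 5p to the 3p arm (0.5 counts added to each) was tested with limma 3.58.1 over 222 hairpins. Alternatives were DESeq2 1.42.0, limma-voom, other scalings, no filter, a replicate block, a pseudocount of 2, at least 50 counts per arm, and leaving out libraries. The scripts were checked on simulated data.

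Members and lists were chosen with earlier results of these data known. Named were the 10 members of highest mean CPM; in the region comparison, up to 12 lower and 12 higher members past the threshold; the 6 of lowest p in each line comparison and the 4 in the interaction (each at a mean of 10 CPM or more); and of the arms the hairpins past the threshold, or otherwise the 4 of lowest p, with the largest and smallest ratio. Exceptions are stated where they occur. In amygdala, low and high responder libraries of the same number deviated together (correlations of 0.69, 0.29, 0.21 and 0.51), so their numbers were taken to pair them, a pairing that comes from the data and not from the labels. No other pair of groups had all its correlations above 0.1.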

Additional observations from a re-analysis of the deposited data

Results flagged for a closer look

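In each group of 4 libraries, the highest or lowest value of a named member was compared with its nearest neighbour, as a part of the range of the group. Of 156 group values 22 had a gap above Dixon's 95% critical value; chance flags about 1 in 20 such groups. Levels are in CPM with TMM scaling, and low responder dorsal raphe replicate 4 had the lowest factor, 0.596, which raises all its CPM. What lies behind these gaps was not tested. A flag sets the gap against the range of the group, so a small gap is flagged where the other values are nearly equal. Low responder dorsal raphe replicate 4 had by far the highest level of its group for miR-666-5p (122 CPM, against 48.5 to 51.5 in the other 3), miR-380-5p (1989.6 CPM, against 438 to 494.1 in the other 3), miR-382-5p (4607 CPM, against 1390.4 to 1638 in the other 3), miR-379-5p (35639.9 CPM, against 4644 to 5822 in the other 3), miR-541-5p (4775 CPM, against 1536 to 1697 in the other 3), miR-323-3p (2020 CPM, against 1087 to 1133 in the other 3), miR-485-5p (4943 CPM, against 477 to 623 in the other 3) and miR-667-5p (223.5 CPM, against 42.7 to 50.9 in the other 3). Low responder dorsal raphe replicate 4 had by far the lowest level of its group for miR-376a-5p (78.5 CPM, against 307 to 370 in the other 3), miR-379-3p (77.7 CPM, against 317 to 368.6 in the other 3), miR-376b-5p (227 CPM, against 597 to 701 in the other 3), miR-539-3p (58.5 CPM, against 273 to 349 in the other 3) and miR-494-3p (4.81 CPM, against 37.2 to 46.1 in the other 3). Low responder dorsal raphe replicate 4 had by far the highest log2 ratio of the 5p to the 3p arm of its group for miR-541 (10.37, against 6.45 to 6.64 in the other 3) and miR-539 (1.31, against -1.71 to -1.40 in the other 3). High responder dorsal raphe replicate 1 had the lowest level of its group for miR-382-5p (968 CPM, against 1241 to 1269 in the other 3). Low responder amygdala replicate 1 had the highest level of its group for miR-485-5p (395 CPM, against 277 to 290.5 in the other 3). High responder amygdala replicate 1 had by far the highest level of its group for miR-485-5p (1227 CPM, against 442 to 518 in the other 3). High responder amygdala replicate 1 had by far the highest log2 ratio of the 5p to the 3p arm of its group for miR-541 (8.27, against 6.88 to 7.05 in the other 3). High responder dorsal raphe replicate 2 had the lowest level of its group for miR-494-3p (30.7 CPM, against 36.1 to 36.2 in the other 3), a small gap. High responder dorsal raphe replicate 3 had the lowest log2 ratio of the 5p to the 3p arm of its group for miR-541 (5.999, against 6.52 to 6.58 in the other 3) and miR-412 (2.62, against 3.46 to 3.62 in the other 3).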

How the results depend on the processing

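Of the values of named members and hairpins under the alternatives, 956 kept their direction and their side of the threshold, 48 lost a call, 19 gained one and 8 reversed. An uncalled value counts as kept while it stays uncalled with its sign, whatever its size. For the line difference in dorsal raphe, miR-485-5p was kept in all 22 alternatives, with log2 fold changes of -2.18 to -0.20. The reversed values were those of uncalled members in the region comparison: miR-495 (-0.14 with all libraries, -0.23 to 0.15 leaving out 1) gave 0.0035 without low responder amygdala replicate 2, 0.15 without high responder dorsal raphe replicate 3, 0.085 without high responder amygdala replicate 1 and 0.18 without both libraries that stood apart; miR-410-3p (-0.21, and -0.34 to 0.078 leaving out 1) gave 0.078 without high responder amygdala replicate 1, 0.0020 without high responder amygdala replicate 2 and 0.12 without both; and miR-541-5p (-0.41) gave 0.049 without both. Leaving out 1 library at a time, the members called numbered 12 to 26 for the region averaged over lines (18 with all). Over all miRNAs 17.2% to 32.9% were called there (24.3% with all). In low responders 3 to 12 members were called (13), against 7.09% to 14.6% of all miRNAs (14.1%). In high responders 3 to 18 were called (8), against 9.2% to 19.3% (13.1%). For each line comparison and the interaction the range was 0 to 0, against at most 0.302% of all miRNAs. The hairpins called by arm ratio numbered 1 to 3 for region (1), against 3.83% to 16.2% of all hairpins (5.41%). For line in dorsal raphe they numbered 0 to 0 (0% of all hairpins). For line in amygdala they numbered 0 to 2 (0), against 0.866% to 4.68% (1.8%). In high responders DESeq2 called 16 members, scaling by library totals 14 (17.4% of all miRNAs) and the fit without both libraries 19 (21.3%); DESeq2 called 1 member in the interaction. By arm ratio 5 hairpins were called for region without both libraries, and 1 for line in amygdala with at least 50 counts per arm (8.93% of all hairpins). The cause of these changes was not tested. Scaling by library totals moved the median of all miRNAs from -0.12 to 0.02 (region in low responders), from 0.08 to -0.11 (region in high responders), from -0.06 to 0.14 (line in dorsal raphe) and from 0.09 to -0.24 (interaction). With the replicate block 21, 12 and 8 members were called for region averaged, in low and in high responders, against 29.4%, 16.4% and 14.2% of all miRNAs. For each line comparison and the interaction 0 members were called (0% of all miRNAs). By arm ratio 1, 0 and 0 hairpins were called, against 4.05%, 0% and 1.8% of all hairpins. The block thus moved no count of members or their hairpins by over 1.5 times. Of the calls over all miRNAs, 38.7% were higher in amygdala averaged over the lines, 36.2% with library totals, 46.9% with RLE factors, 49.3% by DESeq2 and 60.4% without both libraries; 25.6% in low responders, against 38.6% with library totals and 36.7% by DESeq2; and 50% in high responders, against 36.0% with library totals. DESeq2 gave no adjusted p for miR-379-5p in the region comparison or for miR-485-5p in the line comparison in dorsal raphe and in the interaction. Depth limits the 18 members under 10 CPM, where 3 counts stand for up to 1.72 CPM.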
